A study of Mus musculus with 24 samples.

Results

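Lymphatic vessel genes were described here through 6 members, Lyve1, Prox1, Flt4, Vegfc, Pdpn and Reln, which were taken by gene symbol from the 18368 genes of the expression table. All 6 were present in the table. RNA was measured by sequencing of whole skin from 12 CD1 mice of 7 weeks of age, with hair follicles in the resting (telogen) phase. Abdomen, back and cheek were each sampled in 4 mice, and each mouse gave 1 wound library and 1 library of the unwounded skin next to it. The wound was a full-thickness punch of 2 mm, collected on day 3. Mice wounded on the abdomen or back carried 2 wounds and mice wounded on the cheek carried 1, so the number of wounds and the site cannot be told apart for the cheek. All mice had anaesthesia, analgesia and shaving, the labels name no transgene, and they do not say whether the 2 wounds of a mouse went into 1 library.

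Lymphatic vessels drain fluid, antigen and migrating immune cells from the skin. Their endothelium is specified by the transcription factor PROX1 and grows in response to the secreted factor VEGF-C, which binds the receptor VEGFR3, the product of Flt4. LYVE1, a hyaluronan receptor, and podoplanin, a membrane glycoprotein encoded by Pdpn, are widely used to stain lymphatic capillaries, and reelin is an extracellular glycoprotein secreted by lymphatic endothelium. Several of these genes are also used by other cells of the skin: LYVE1 by a class of resident macrophages, and podoplanin by fibroblasts and activated keratinocytes.

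Levels were given as FPKM, the fragments of a gene scaled by its transcript length and by the mapped fragments of the library, which are corrected for length and can therefore be set side by side between genes. The order of the medians over 24 libraries was Pdpn (23.8 FPKM), Lyve1 (8.69 FPKM), Vegfc (3.58 FPKM), Flt4 (3.06 FPKM), Reln (0.885 FPKM) and Prox1 (0.355 FPKM). The ranges of Vegfc, from 1.85 to 5.39 FPKM, and Flt4, from 1.70 to 3.82 FPKM, overlapped over most of their length. Podoplanin RNA exceeded the median level of 81.7% of genes in the table, and Prox1 RNA that of 23.6%. No member was listed at 0 in any library. Read counts were not part of the values used, so the depth behind each value is unknown.

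Differences were fitted with limma on log2(FPKM + 0.5), a scale that understates the change of genes with low levels, for each gene that reached 0.5 FPKM in 4 or more libraries. Sites were called at an adjusted p under 0.05 and wound effects at an adjusted p under 0.001. Pdpn was higher in day 3 wounds at all 3 sites, the 1 member called in any wound comparison. Of all tested genes 4.96% were called in the abdomen, 14.4% in the back and 8.69% in the cheek. The abdominal Pdpn call was lost with any 1 abdominal mouse left out. Between unwounded sites, Vegfc was lower in back than in abdominal skin, the 1 member called there. This call was kept in 6 of 12 fits with 1 mouse left out. It was lost with median-ratio scaling between libraries and with quantile normalisation. No member was called between wounds of different sites. Of all tested genes 1.05% to 2.67% were called between unwounded sites and 1.27% to 10.8% between wounds. Lyve1 and Reln were lower in each of the 4 abdominal wounds, with limma adjusted p of 0.0077 and 0.0052, short of the threshold. Prox1, Flt4 and Vegfc were also lower in 4 of 4 abdominal mice, as were 25.0% of tested genes. In whole skin, fewer cells of a type and less RNA per cell cannot be told apart in any of these results.

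**Figure D1:**
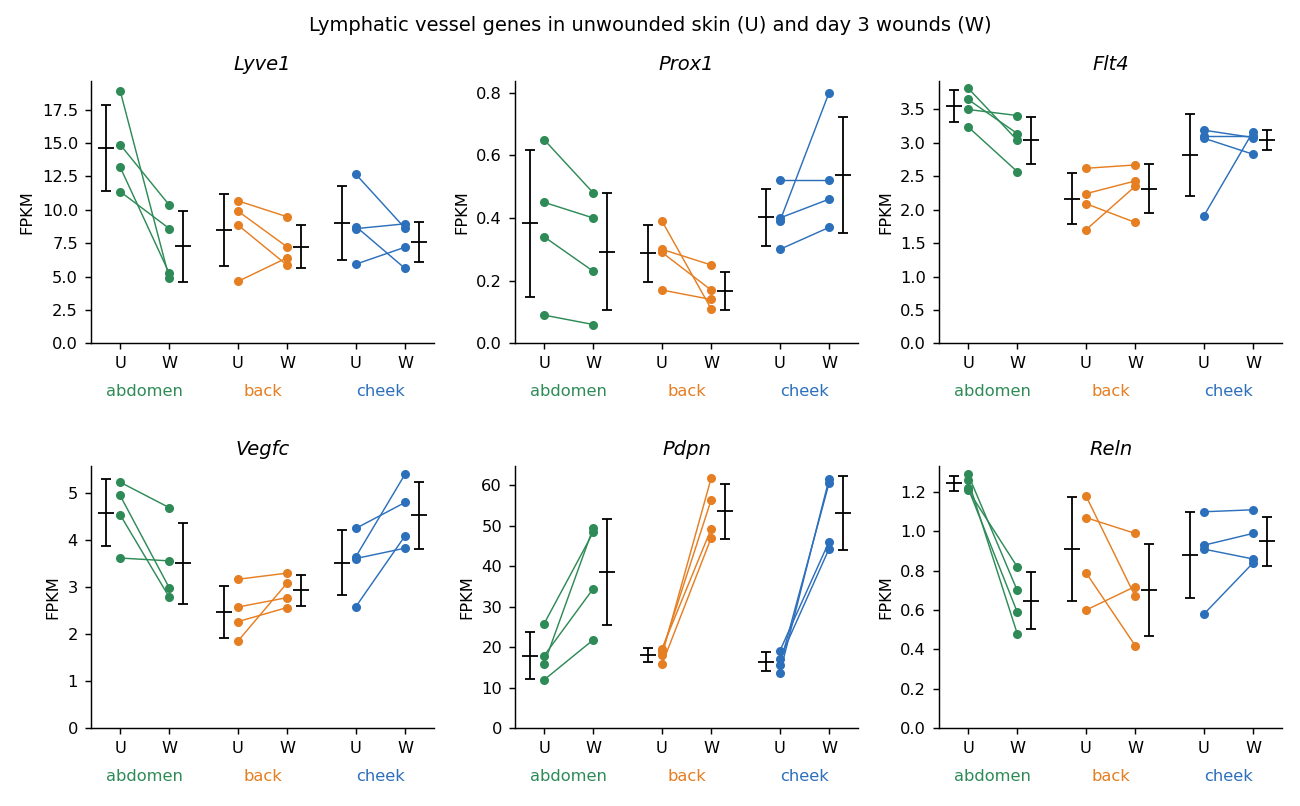
FPKM (linear axis from 0) of the 6 genes in unwounded skin (U) and day 3 wounds (W) of abdomen, back and cheek, with a line joining the libraries of each mouse and black bars for mean ± SD (n = 4). The Pdpn lines rise in all 12 mice, and the unwounded abdominal points of Vegfc lie above the unwounded back points.

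The sequences before the start sites of the called members, Vegfc and Pdpn, are shown because these genes carried the site difference and the wound difference, respectively. Each is 250 bases long, in the RefSeq sequence of build GRCm38.p6, 5′ to 3′ on the strand of the gene, with motif matches in capitals. The Vegfc window lies at chr8:54077282-54077531 on the plus strand, and its capitals mark matches to the GC box GGGCGG read on the opposite strand.
Vegfc: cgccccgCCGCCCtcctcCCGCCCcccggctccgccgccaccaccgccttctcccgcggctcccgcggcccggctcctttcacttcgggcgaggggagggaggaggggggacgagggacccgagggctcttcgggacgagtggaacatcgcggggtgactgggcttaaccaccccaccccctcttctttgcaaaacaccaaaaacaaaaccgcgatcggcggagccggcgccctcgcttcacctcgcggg
The Pdpn window lies at chr4:143299565-143299814 on the minus strand, and its capitals mark the E-box CACGTG.
Pdpn: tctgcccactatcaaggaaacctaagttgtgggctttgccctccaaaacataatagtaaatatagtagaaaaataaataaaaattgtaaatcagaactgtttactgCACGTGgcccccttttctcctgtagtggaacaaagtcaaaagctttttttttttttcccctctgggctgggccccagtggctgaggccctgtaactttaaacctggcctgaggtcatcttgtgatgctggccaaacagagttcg
Both strands were searched for 4 motifs. The GC box GGGCGG was found in 32.9% of 27025 promoters of the same length, the E-box CACGTG in 6.05%, the TATA box TATAAA in 13% and the AP-1 motif TGANTCA in 6.87%. Vegfc held 2 GC boxes and Pdpn held 1 E-box, and no other match was found in either window. The GC content was 71.6% before Vegfc and 43.2% before Pdpn, against a median of 52.0% over all promoters. A match is a description of the letters and was not tested as a binding site.

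Vegfc, encoding the growth factor that drives lymphatic sprouting, was measured in unwounded abdominal skin at 4.53, 5.22, 4.94 and 3.61 FPKM in mice 1 to 4. Unwounded back skin held 2.57, 1.85, 2.26 and 3.16 FPKM, and unwounded cheek skin 3.64, 4.24, 3.60 and 2.58 FPKM. The abdominal values all lay above the back values, with the cheek values overlapping both. Back was lower than abdomen by a log2 difference of -0.79 (SE 0.17, limma adjusted p = 0.031), and the exact permutation test of 4 against 4 libraries gave p = 0.029, the smallest it allows. In this comparison 2.67% of tested genes were called, and 2.14% were called lower in the back. The 373 genes called became 109, 124, 144 and 171 without abdomen mouse 2, abdomen mouse 3, back mouse 2 and back mouse 3, 232 with median-ratio scaling and 1527 with all 24 libraries in the fit. The call was lost with each of 6 mice left out, abdomen mice 1, 2 and 3 (adjusted p = 0.055, 0.11 and 0.091) and back mice 1, 2 and 3 (0.058, 0.099 and 0.081). It was also lost with median-ratio scaling between libraries (log2 difference -0.68, adjusted p = 0.083) and quantile normalisation (-0.71, adjusted p = 0.077). The median tested gene was itself lower in the back by a log2 difference of -0.12, and by -0.0028 after median-ratio scaling.

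In wounds, Vegfc was measured at 2.78, 4.68, 2.98 and 3.55 FPKM in the abdomen, at 2.77, 3.08, 2.56 and 3.29 FPKM in the back, and at 5.39, 4.79, 3.82 and 4.08 FPKM in the cheek. Every cheek wound lay above every back wound, with a log2 difference of 0.55 (limma adjusted p = 0.066). Among tested genes 2.50% were called between cheek and back wounds, and 17.2% had all 4 cheek values above the back values. This difference passed 0.05 without abdomen mouse 2 (adjusted p = 0.047) or abdomen mouse 3 (0.0498), although neither mouse belongs to the groups compared. No member was called between wounds of any pair of sites by limma, and at an unadjusted p under 0.05 the counts of 5 members were 2 for back against abdomen (Flt4 and Pdpn), 3 for cheek against abdomen (Vegfc, Pdpn and Reln) and 2 for cheek against back (Flt4 and Vegfc). Of all tested genes 16.5%, 31.6% and 26.1% passed that unadjusted threshold. The cheek against the abdomen gave a log2 difference of 0.34 (adjusted p = 0.14), which passed without abdomen mouse 2 (0.47, adjusted p = 0.046).

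Within mice, Vegfc was lower in 4 of 4 abdominal wounds and higher in 4 of 4 back and 4 of 4 cheek wounds than in the unwounded skin of the same mouse. The log2 wound effects were -0.36 (SE 0.14, limma adjusted p = 0.063) in the abdomen, 0.22 (adjusted p = 0.20) in the back and 0.33 (adjusted p = 0.078) in the cheek, and none was called. Among tested genes 25.0% were lower in 4 of 4 abdominal mice, 33.9% higher in 4 of 4 back mice and 25.0% higher in 4 of 4 cheek mice. The exact order of signs seen in Vegfc was found in 8 of 14423 tested genes (0.0555%), a pattern set by the Vegfc values. The broader pattern, lower in 4 of 4 mice of 1 site and higher in 4 of 4 mice of another, was found in 214 genes (1.48%). The differences between the effects were 0.58 for back against abdomen (adjusted p = 0.20) and 0.69 for cheek against abdomen (adjusted p = 0.29), and the F test over the 3 sites gave an adjusted p of 0.25. The F test called 0.0208% of genes, and the pairwise differences 0.0% (back against abdomen) and 0.00693% (cheek against abdomen). Without abdomen mouse 1 these counts of all tested genes went from 3 to 315, from 0 to 597 and from 1 to 209, and Vegfc was not called in any of the 3.

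Flt4, which encodes the VEGF-C receptor of lymphatic endothelium, was measured at 3.50, 3.65, 3.82 and 3.24 FPKM in unwounded abdominal skin. The unwounded back held 2.24, 2.62, 2.09 and 1.70 FPKM and the unwounded cheek 3.19, 3.11, 3.07 and 1.91 FPKM. All abdominal values lay above those of both other sites. The log2 difference of back from abdomen was -0.62 (SE 0.16, limma adjusted p = 0.059), and that of cheek from abdomen was -0.31 (adjusted p = 0.32). The back difference was called without cheek mouse 4 (adjusted p = 0.021), which lies outside the groups compared, and in the fit of all 24 libraries (adjusted p = 0.0068). In wounds Flt4 stood at 3.04 ± 0.35 FPKM in the abdomen, 2.32 ± 0.36 FPKM in the back and 3.05 ± 0.15 FPKM in the cheek (SD, n = 4). The cheek wounds lay above all back wounds, with a log2 difference of 0.34 (adjusted p = 0.096). The wound effect on Flt4 was -0.20 in the abdomen, 0.08 in the back and 0.12 in the cheek (limma adjusted p = 0.25, 0.62 and 0.51). The direction was higher in 4 and lower in 7 of 12 mice. In the abdomen Flt4 was lower in 4 of 4 mice, as were 25.0% of tested genes.

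Lyve1, the hyaluronan receptor, was measured in unwounded abdominal skin at 11.4, 14.9, 18.9 and 13.2 FPKM and in the abdominal wounds of the same mice at 8.60, 10.4, 4.89 and 5.25 FPKM. The wounds were lower in 4 of 4 mice, as was so for 25.0% of tested genes. The log2 wound effect was -0.997 (SE 0.24, limma adjusted p = 0.0077), which did not pass 0.001. Of tested genes 4.96% were called in the abdomen at 0.001 and 32.9% had an adjusted p under 0.05. In the back Lyve1 went from a mean of 8.52 ± 2.69 to 7.24 ± 1.60 FPKM, and in the cheek from 8.98 ± 2.77 to 7.60 ± 1.53 FPKM (SD, n = 4). These effects of -0.18 and -0.20 had adjusted p of 0.56 and 0.53. Wound means of Lyve1 at the 3 sites lay between 7.24 and 7.60 FPKM, and the F test of unequal wound effects gave an adjusted p of 0.38.

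Unwounded Lyve1 was lower in each back library (4.64, 8.86, 10.7 and 9.90 FPKM) than in each abdominal library, while the cheek libraries (12.7, 8.75, 5.93 and 8.59 FPKM) overlapped the abdominal ones. The log2 difference from the abdomen was -0.78 for the back (limma adjusted p = 0.13) and -0.69 for the cheek (adjusted p = 0.18). Of the 5 members tested between sites, Lyve1, Flt4, Vegfc and Reln had all 4 unwounded back values below the abdominal values, and 10.7% of tested genes did so. Pdpn did not (log2 difference 0.07, adjusted p = 0.86). The members' median log2 difference was -0.62 and that of all tested genes -0.12. For cheek against abdomen, Flt4 and Reln had all values below, against 4.49% of tested genes, and the members' median was -0.34 against 0.03 for all tested genes. Of all tested genes 2.57% were called between unwounded cheek and abdomen and 1.05% between cheek and back. No member was called in either by limma, and at an unadjusted p under 0.05 limma counted 1 of 5 members in each, Lyve1 against the abdomen and Vegfc against the back, where 19.0% and 21.6% of tested genes passed it.

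Resident macrophages with LYVE1 are another source of Lyve1 RNA known in skin, and their markers were read beside it. The summed level of 8 markers of these macrophages ranged from 555 to 653 FPKM in unwounded abdominal skin and from 439 to 573 FPKM in abdominal wounds. It ranged from 491 to 638 FPKM without and 610 to 756 FPKM with a wound in the back, and from 457 to 728 FPKM and 431 to 668 FPKM in the cheek. Gas6 and Cbr2 weighed heavily in this sum, with unwounded back means of 203 and 121 FPKM. In the back, mean Cbr2 went from 121 to 212 FPKM in wounds and mean Cd209f from 59.4 to 31.8 FPKM. All 8 markers were tested for the mean wound effect over sites, with 1 called higher (Cbr2, log2 0.42) and 1 called lower (Timd4, log2 -0.70). Of all tested genes 19.1% were called higher and 14.4% lower in this mean. By site, 1 of 8 effects was positive in the abdomen (median log2 -0.36), 5 of 8 in the back (0.03) and 2 of 8 in the cheek (-0.21). Their part in the Lyve1 values was not tested. The summed level of 8 general macrophage and monocyte markers ranged from 125 to 273 FPKM in unwounded skin and from 516 to 1034 FPKM in wounds, and 7 of 8 rose, led by Cd14 (log2 3.72) and Fcgr1 (log2 2.44).

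Reln, which encodes secreted reelin, was measured at 1.26, 1.21, 1.22 and 1.29 FPKM in unwounded abdominal skin and at 0.48, 0.82, 0.59 and 0.70 FPKM in abdominal wounds. All 4 mice had less in the wound, as was so for 25.0% of tested genes. The log2 effect was -0.61 (SE 0.14, limma adjusted p = 0.0052), short of 0.001. The back effect was -0.23 (adjusted p = 0.18) and the cheek effect 0.08 (adjusted p = 0.67). Unwounded back skin held 0.60, 1.18, 0.79 and 1.07 FPKM and unwounded cheek skin 1.10, 0.93, 0.91 and 0.58 FPKM, each below every abdominal value. Neither difference was called, at -0.33 for the back and -0.35 for the cheek (adjusted p = 0.27 for both). In wounds, the cheek libraries held 1.11, 0.99, 0.86 and 0.84 FPKM and lay above all abdominal wounds (log2 difference 0.34, adjusted p = 0.15). Among tested genes 13.6% had all cheek wounds above all abdominal wounds and 10.8% were called. The wound effects of cheek and abdomen differed by 0.70 (adjusted p = 0.29), and the F test over sites gave an adjusted p of 0.27.

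Prox1, the transcription factor that sets lymphatic identity, ranged from 0.06 to 0.80 FPKM and reached 0.5 FPKM in 4 of 24 libraries, 2 unwounded and 2 wounds. It therefore entered the test of wound effects but not the tests between sites. Its wound effects were -0.15 in the abdomen, -0.24 in the back and 0.19 in the cheek (limma adjusted p = 0.42, 0.16 and 0.28). Prox1 was lower in 4 of 4 abdominal and 4 of 4 back mice, as were 25.0% and 22.6% of tested genes. At this low level the back effect depended on the scale: it was -0.53 (adjusted p = 0.11) at a pseudocount of 0.1 and -0.47 (adjusted p = 0.011) with quantile normalisation, which moved the mean over sites from -0.06 to -0.22 (adjusted p = 0.020). Wounds held 0.23, 0.40, 0.06 and 0.48 FPKM in the abdomen, 0.17, 0.25, 0.14 and 0.11 FPKM in the back, and 0.46, 0.80, 0.52 and 0.37 FPKM in the cheek. The cheek wounds lay above all back wounds (means of 0.538 and 0.168 FPKM, two-sided exact permutation p = 0.029, the smallest that 4 against 4 allows). Among genes tested between wound sites, which did not include Prox1, 17.2% had all cheek wounds above all back wounds. Prox1 lies at chr1:190118035-190170827 and overlaps an antisense gene in the mouse annotation, and since the strand setting is not given in the sources used here, reads of both cannot be told apart.

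Pdpn, which encodes podoplanin, rose in wounds of all 3 sites. In the abdomen it was measured at 15.9, 25.8, 11.9 and 17.9 FPKM without a wound and at 49.5, 48.4, 21.8 and 34.5 FPKM in the wounds. In the back it went from 15.8, 18.02, 19.6 and 19.0 FPKM to 47.0, 61.8, 49.2 and 56.4 FPKM. In the cheek it went from 19.1, 17.1, 15.7 and 13.7 FPKM to 46.1, 44.3, 60.5 and 61.5 FPKM. Every wound exceeded the unwounded skin of its mouse. Of tested genes 23.7% were higher in 4 of 4 abdominal mice, 33.9% in 4 of 4 back mice and 25.0% in 4 of 4 cheek mice. The lowest abdominal wound lay below the highest unwounded abdominal library. The log2 wound effects were 1.07 in the abdomen (SE 0.15, limma adjusted p = 0.00032), 1.54 in the back (adjusted p = 9.5e-06) and 1.66 in the cheek (adjusted p = 6.6e-06). At the threshold of 0.001, 4.96% of tested genes were called in the abdomen, 14.4% in the back and 8.69% in the cheek, in either direction. The abdominal call was lost without any 1 of abdomen mice 1, 2, 3 and 4 (adjusted p = 0.0020, 0.0011, 0.0015 and 0.0018), with quantile normalisation (effect 0.99, adjusted p = 0.0014) and without the term for mouse (adjusted p = 0.0014). On its own 8 libraries neither the abdominal (adjusted p = 0.0047) nor the cheek call (0.0016) was kept.

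Over the 12 mice, Pdpn rose by 1.42 on the log2 scale (SE 0.088, limma adjusted p = 4.4e-08; higher in 12 of 12 mice, exact p = 0.000488 by sign changes, the smallest that 12 pairs allow). In this mean of the 3 sites, 33.4% of tested genes were called, 19.1% higher and 14.4% lower. Among tested genes 14.4% were higher in 12 of 12 mice. Lyve1 had a mean effect of -0.46 (adjusted p = 0.011, lower in 9 of 12 mice) and Reln of -0.26 (adjusted p = 0.013, lower in 8 of 12 mice). Neither passed 0.001, and 62.7% of tested genes had an adjusted p under 0.05. Flt4, Vegfc and Prox1 had mean effects of -0.00028, 0.07 and -0.06 (adjusted p = 0.998, 0.49 and 0.48). Reln passed with quantile normalisation (effect -0.35, adjusted p = 0.00091). Between sites the Pdpn effect did not differ in the F test (adjusted p = 0.36), and the wound levels of Pdpn differed between back and abdomen by 0.53 (adjusted p = 0.27) and between cheek and abdomen by 0.51 (adjusted p = 0.15).

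**Figure D2:**
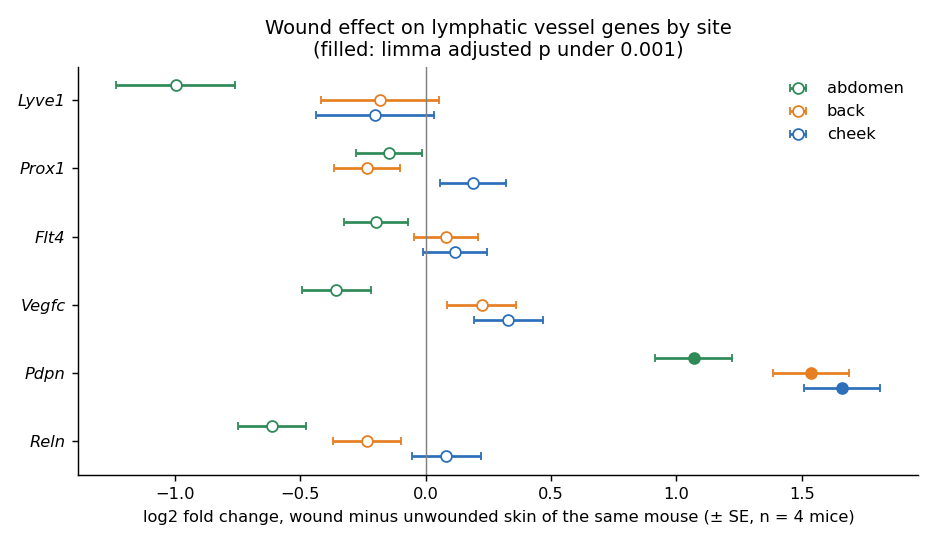
Log2 fold change of wound over unwounded skin of the same mouse for the 6 genes at each site, from limma on log2(FPKM + 0.5), with bars of ± SE (n = 4 mice) and filled points for adjusted p under 0.001. Pdpn has the filled points, between 1.07 and 1.66, and the abdominal points of Lyve1 and Reln lie at -0.997 and -0.61.

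Fibroblasts and keratinocytes also make podoplanin, so their markers were read beside it. The summed level of 7 basal and wound keratinocyte markers ranged from 3007 to 4971 FPKM in unwounded skin and from 6482 to 24924 FPKM in wounds. In the mean of the sites 6 of 7 rose, led by Krt6b (log2 10.5) and Krt16 (log2 6.96). Of all tested genes 19.1% were called higher and 14.4% lower in this mean. The summed level of 8 fibroblast markers ranged from 6861 to 16231 FPKM in unwounded skin and from 5012 to 9750 FPKM in wounds, with 0 called higher and 2 called lower, Dpt (log2 -1.004) and Col1a1 (log2 -0.84). Matrix genes weighed heavily in this sum, with unwounded back means of 5633.5 FPKM for Col1a1 and 4610.1 FPKM for Col3a1. The list was mixed, with 1 of 8 effects positive in the abdomen and 3 of 8 in the back and in the cheek. Mean Pdgfra went from 15.2 to 23.0 FPKM in the back, from 19.25 to 29.6 FPKM in the cheek and from 19.6 to 19.1 FPKM in the abdomen. Their part in the Pdpn values was not tested. All 6 neutrophil markers rose, led by S100a9 (log2 6.74) and S100a8 (log2 6.31). Of 8 skeletal muscle markers 1 was called higher (Tnni1) and 0 lower, but only 2 had positive effects and the median was -1.22. The muscle sum ranged from 10920 to 17331 FPKM in unwounded back skin and from 2338 to 3433 FPKM in back wounds. In cheek wounds it ranged from 3753 to 5096 FPKM and in abdominal wounds from 1233 to 3956 FPKM. Of 5 Schwann cell markers 1 fell (S100b), with 0 positive effects and a median of -0.53.

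Among the named partners of podoplanin and reelin, 7 of 8 were tested, and 3 rose and 1 fell in the mean of the sites. Of all tested genes 19.1% were called higher and 14.4% lower there. Cd44, a hyaluronan receptor that binds podoplanin, rose by 1.21, and Msn, which encodes the cytoskeletal linker moesin, by 1.06 on the log2 scale. The reelin receptor Lrp8 rose by 0.77, and the other reelin receptor, Vldlr, fell by 0.84. Clec1b, which encodes the platelet receptor of podoplanin, was not tested, was listed at 0 in 5 libraries and reached 0.23 FPKM.

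A list of 15 other genes of lymphatic endothelium gave the setting of the members. In the mean wound effect 6 of 15 fell and 2 rose, with a median of -0.38 against 0.02 over all tested genes, of which 14.4% were called lower and 19.1% higher. The genes that fell included the chemokine-scavenging receptors Ackr4 (-0.93, limma adjusted p = 0.00011) and Ackr2 (-0.84, adjusted p = 4.2e-06), the transcription factor Tbx1 (-0.66), Mmrn1 (-0.64), Fxyd6 (-0.60) and Clca3a1 (-0.50). Mmrn1, which encodes multimerin 1 and is a marker of lymphatic endothelium, went from 8.31 ± 1.04 to 4.48 ± 1.03 FPKM in the abdomen (SD, n = 4). The genes that rose were Emilin1, an elastic-fibre glycoprotein, by 1.35 and the endothelial transcription factor Sox18 by 0.51. Ccl21a, the chemokine that guides dendritic cells into lymphatic vessels, had an effect of -0.38 (adjusted p = 0.030) and was not called. Several of these genes are used by other skin cells as well, and the list is not specific to the vessel.

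Of the 14 blood and pan-endothelial markers, 9 were called higher and 0 lower in the mean of the sites (median log2 effect 0.46), where 19.1% of tested genes were called higher. The other 5 were not called, with effects from -0.37 (Tek, limma adjusted p = 0.020) to 0.31 (Robo4, adjusted p = 0.0017). Tie1 rose by 0.76, Cdh5, which encodes the endothelial junction protein VE-cadherin, by 0.74 and Pecam1 by 0.61. Their summed level ranged from 232 to 313 FPKM in unwounded skin and from 317 to 387 FPKM in wounds, with no overlap. Against the mean log2 level of these 14 genes, Lyve1 changed by -0.83 and Reln by -0.62, each lower in 12 of 12 mice (exact p = 0.000488 by sign changes, the smallest 12 pairs allow), and Flt4 by -0.37, also in 12 of 12 mice. Pdpn changed by 1.05, higher in 12 of 12 mice as 4.34% of tested genes were, while Prox1 changed by -0.43 (11 of 12 mice, exact p = 0.0034) and Vegfc by -0.30 (9 of 12 mice, exact p = 0.033). Since the endothelial mean itself was higher in wounds by 0.37, the median tested gene was at -0.35 on this measure, 32.1% of genes were lower in 12 of 12 mice and 65.9% were lower at an exact p under 0.05. The Flt4, Prox1 and Vegfc values therefore lay near that of the median gene, and Lyve1 and Reln lay below it. Against Pecam1 and Cdh5 alone the median tested gene was at -0.66, and the members stood at -1.135 (Lyve1), -0.93 (Reln), -0.74 (Prox1), -0.67 (Flt4), -0.61 (Vegfc, exact p = 0.0020) and 0.75 (Pdpn, higher in 11 of 12 mice). Without abdomen mice 1, 2, 3 or 4, back mice 1 or 4, or cheek mouse 3, the Vegfc value no longer passed 0.05 (exact p up to 0.066, mean -0.24 to -0.30 in those cases).

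**Figure D3:**
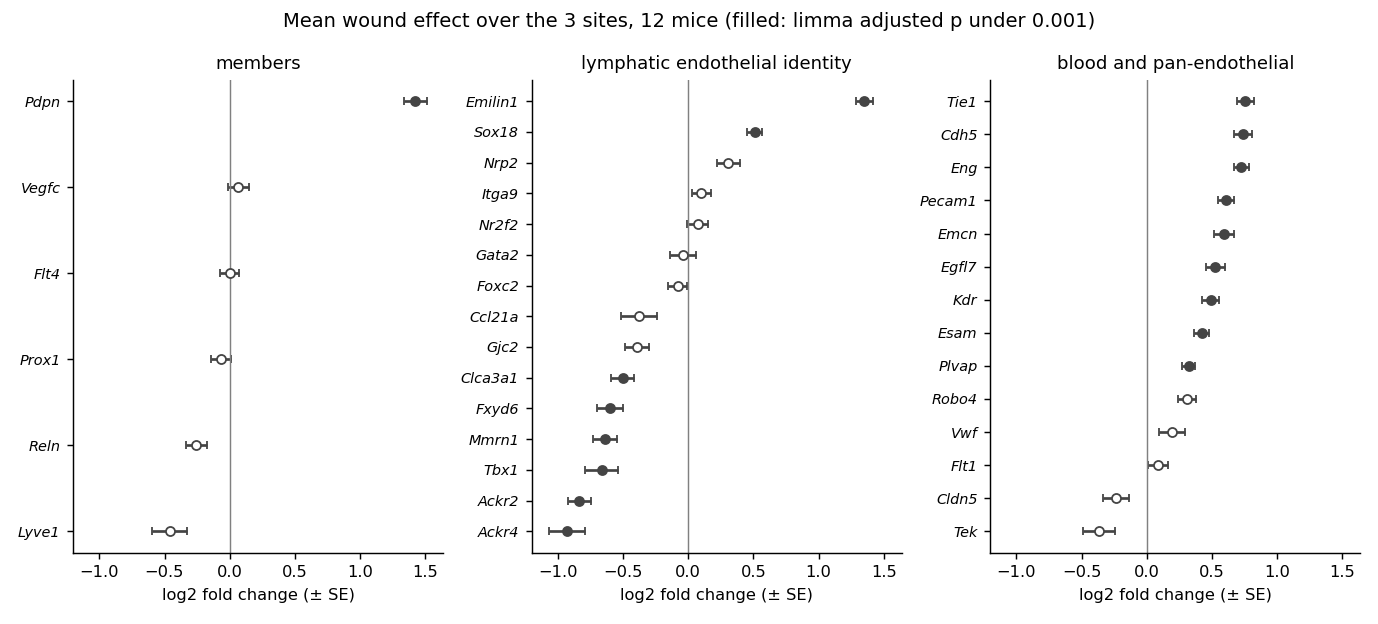
Mean log2 wound effect over the 3 sites (limma on log2(FPKM + 0.5), ± SE, 12 mice) for the 6 members, 15 lymphatic endothelial genes and 14 blood and pan-endothelial markers, with filled points for adjusted p under 0.001. The lymphatic list has 6 filled points below 0 and 2 above, and the endothelial list has 9 filled points, all above 0.

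The list of genes that process VEGF-C and VEGF-D or encode their receptors and relatives held 11 symbols, of which Figf and Vegfd name the same gene. Of these symbols 10 were in the expression table and 9 were tested, with 4 called higher and 1 lower in the mean of the sites (median 0.39). Of all tested genes 19.1% were called higher and 14.4% lower in this mean, with a median of 0.02. Pgf, which encodes placental growth factor, rose by 1.08, Vegfa by 0.67, the receptor gene Kdr by 0.49 and Adamts14 by 0.46, and Vegfb fell by 0.82. Vegfd, the closest relative of Vegfc, had an effect of 0.39 (limma adjusted p = 0.0039) and was not called. Of 16 other growth and junction genes 6 rose and 1 fell. Adm, which encodes adrenomedullin, a lymphangiogenic peptide, rose by 1.13 and Hgf by 0.97, and Angpt1 fell by 0.62.

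Between unwounded sites, Mmrn1 (-0.76, limma adjusted p = 0.031), Ackr4 (-0.62, adjusted p = 0.044) and Clca3a1 (-0.62, adjusted p = 0.049) of the lymphatic list were lower in the back than in the abdomen. Mmrn1 stood at 4.70 ± 0.30 FPKM in the back and 8.31 ± 1.04 FPKM in the abdomen (SD, n = 4), so 3 of 15 of these genes were called lower, against 2.14% of tested genes. In the cheek, Clca3a1 was lower than in the abdomen (-0.88, adjusted p = 0.011) and Sphk1 too (-0.61, adjusted p = 0.050), whereas Fxyd6 (1.63, adjusted p = 0.015) and Angpt1 (1.19, adjusted p = 0.017) were higher. In wounds 13 of the 46 tested genes of the 4 lymphatic lists (28.3%) were called between cheek and abdomen, where 10.8% of all tested genes were called. Ccbe1, which encodes a cofactor needed for VEGF-C processing, was higher in cheek wounds by 0.77 (adjusted p = 0.017), Angpt1 by 1.01, Hgf by 1.00, Fxyd6 by 0.85, Vldlr by 0.60, Tek by 0.57, Met by 0.53, Vegfa by 0.52, Adm by 0.39, Itga9 by 0.34 and Fgfr1 by 0.31, and Clca3a1 (-0.59) and Sphk1 (-0.41) were lower. Flt1 was called there on the endothelial list. Adm was also called between back and abdominal wounds (0.60, adjusted p = 0.017), where 1.27% of tested genes were called.

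The punches held varying amounts of muscle: the summed level of 8 skeletal muscle markers ranged from 366 to 11157 FPKM in unwounded abdominal skin, from 10920 to 17331 FPKM in unwounded back skin and from 8408 to 16602 FPKM in unwounded cheek skin. Unwounded abdominal skin, which had the highest mean levels of Vegfc, Flt4, Lyve1 and Reln, had a median muscle sum of 6367 FPKM against 14291 FPKM in the back and 12991 FPKM in the cheek. The part of muscle in these site differences was not tested. Myh7 and Pax7, 2 of the muscle markers, were listed at 0 in 9 and 2 libraries.

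To describe how the members varied together, site and wound means were removed and Pearson's r was taken over the 24 libraries against 14422 genes. Libraries of a mouse share an animal, so no p was computed. Between members r ranged from -0.25 (Lyve1 and Prox1) to 0.48 (Vegfc and Reln), and no member was among the 3 genes most like another member. Fcna, Adamts5 and Xpnpep2 were most like Lyve1 (r = 0.79, 0.79 and 0.78), Serpinb10, Aqp5 and Chst1 most like Flt4 (0.81, 0.79 and 0.77), and Cpeb1, Ubl3 and Fbxo8 most like Vegfc (0.85, 0.83 and 0.79). Sh3pxd2b, Snx9 and Itga1 were most like Pdpn (0.83, 0.82 and 0.81), Kiz, Hnmt and Rhobtb1 most like Reln (0.80, 0.80 and 0.79), and Slf2, Sos2 and Zyg11b most like Prox1 (0.86, 0.86 and 0.84). From the lymphatic list, Mmrn1 had r = 0.64 with Vegfc, 0.59 with Reln and 0.53 with Flt4, Ackr2 had r = 0.61 with Reln, and Ccl21a had r = 0.56 with Flt4. Mmrn1 thus ranked 121st of 14422 genes in likeness to Vegfc, 314th to Reln and 207th to Flt4.

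**Figure D4:**
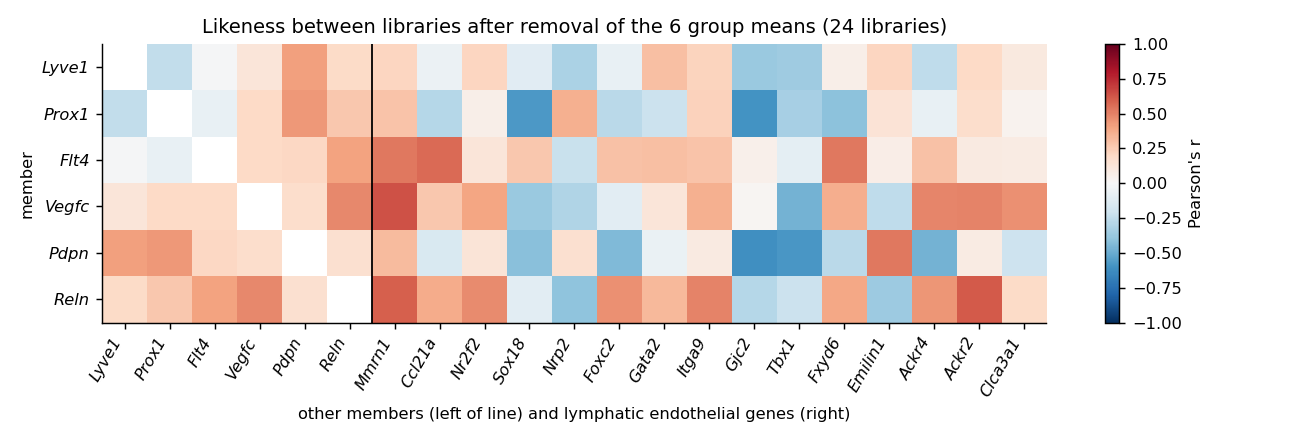
Pearson's r between each member (vertical axis) and the other members and 15 lymphatic endothelial genes (horizontal axis) over 24 libraries after removal of the 6 group means, on a colour scale from -1 to 1. The members' r with each other lies between -0.25 and 0.48, and Mmrn1 has r of 0.53 or more with Flt4, Vegfc and Reln.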

How the data were processed

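Whole skin RNA of 24 libraries was sequenced in paired reads of 100 bases. The authors deposited FPKM values from a commercial provider, which mapped reads to GRCm38 (mm10) with HISAT2 and to transcripts with Bowtie2 2.2.5, quantified them with RSEM 1.2.12 with no scaling across libraries, at 2 decimals. The authors' DESeq2 results (fold changes on a log2 scale, adjusted p-values) were also deposited and were not used, and 0 per-sample columns were left aside.

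Values were tested as log2(FPKM + 0.5) in limma 3.58.1 (trend and robust options, statmod 1.5.0, R 4.3.3), with Benjamini-Hochberg adjustment over all tested genes. A gene entered a fit if 4 or more of its libraries reached 0.5 FPKM. Sites were compared in the 12 libraries of a state (adjusted p under 0.05). Wound effects used 24 libraries with a term for each mouse (adjusted p under 0.001), as the wound and unwounded skin came from the same animal, and their mean r of deviations from group means was 0.322, 0.348 and 0.281 in abdomen, back and cheek, against -0.108, -0.116 and -0.0958 for different mice. Single genes were compared by two-sided exact tests in Python 3.11.15, over all groupings of the libraries or all sign changes of the differences. The fits were tested on simulated data. Of 18368 gene identifiers, 18318 matched the GRCm38.p6 RefSeq table, and 5 of 6 members matched the promoter table.

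All 6 members were named. From each list, the 2 steepest rises and 2 steepest falls among genes called in the mean wound effect were named, together with lymphatic genes called between sites and the 3 genes most like each member. Further genes (Tbx1, Mmrn1, Fxyd6, Clca3a1, Ccl21a, Kdr, Adamts14, Vegfd, Lrp8, Pecam1, Robo4, Tek, Clec1b, Flt1, Pdgfra, Col3a1, Gas6 and Cd209f) were named after their values were seen. The members and the 12 lists were chosen with earlier results of these data known, and Kdr, Tek, Tie1, Cdh5 and Nrp2 stand on 2 lists. Alternatives were other pseudocounts, filters, scalings, moderation, sets of libraries, a threshold of 0.05 and each mouse left out.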

Additional observations from a re-analysis of the deposited data

Results flagged for a closer look

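Flt4 in the unwounded cheek skin of mouse 4 stood at 1.91 FPKM, far below the other 3 cheek mice at 3.07 to 3.19 FPKM. Its gap to the nearest value made up 0.906 of the range of the group. The cut-off for this ratio is one that about 1 in 20 groups of 4 would pass by chance. It was applied to each of the 6 members in each of the 6 groups, so a single flag is no more than chance would give. Vegfc had wound effects of opposite sign between sites in every mouse: back exceeded abdomen by a log2 difference of 0.58 (SE 0.19, limma adjusted p = 0.20) and cheek exceeded abdomen by 0.69 (SE 0.19, adjusted p = 0.29). Neither difference passed the adjustment over all genes. Of tested genes 1.48% were lower in 4 of 4 mice of 1 site and higher in 4 of 4 mice of another.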

How the results depend on the processing

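Of 1076 values recomputed under an alternative, 1012 kept their direction and their side of the threshold, 16 lost a call, 6 gained one and 42 turned in sign, all of them between values that were not called. The number of members called lower in unwounded back than abdomen, 1, became 2 with all 24 libraries in the fit, 0 with median-ratio scaling or quantile normalisation, and 0 to 2 with 1 mouse left out. Between wounds, 0 to 1 members were called for cheek against abdomen and for cheek against back with 1 mouse left out. The abdominal wound count of 1 became 0 without the replicate block, 0 on its own 8 libraries with the replicate block, 0 with quantile normalisation, 3 at a threshold of 0.05 and 0 to 1 with 1 mouse left out. The cheek wound count of 1 became 0 on its own 8 libraries with the block. The count for the mean of the sites became 2 with quantile normalisation and 3 at a threshold of 0.05. The block changed no other call. Relative to endothelial genes, Vegfc stayed between -0.36 and -0.24 with 1 mouse left out. The causes were not tested.

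Turned signs were log2 values near 0. Lyve1 for unwounded cheek against back was -0.059 with median-ratio scaling and -0.078 with quantile normalisation, and for wounds it was -0.0040 (cheek against abdomen, quantile), -0.037 and -0.062 (cheek against back, both scalings). Flt4 for cheek against abdominal wounds was -0.046 and -0.13, Flt4 for the mean wound effect was 0.0029 at a pseudocount of 0.1, and the Reln cheek wound effect was -0.033 (quantile). With 1 mouse left out, unwounded Pdpn ranged from -0.11 to 0.26 (back against abdomen) and -0.25 to 0.11 (cheek against abdomen), Lyve1 from -0.16 to 0.26 and Reln from -0.14 to 0.087 (cheek against back). In wounds, Lyve1 ranged from -0.12 to 0.22 and Reln from -0.059 to 0.17 (back against abdomen), Lyve1 from -0.054 to 0.28 and Flt4 from -0.059 to 0.057 (cheek against abdomen), and Lyve1 from -0.022 to 0.20 and Pdpn from -0.096 to 0.061 (cheek against back). The Flt4 wound effect ranged from -0.015 to 0.16 in the back, -0.048 to 0.19 in the cheek and -0.055 to 0.027 in the mean of the sites. FPKM carry no counts, so the precision of Prox1 and Reln, the lowest members, is unknown.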
